A study of Mus musculus with 8 samples.

Results

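Schwann cell and peripheral myelin genes were described in RNA-seq of injured mouse spinal cord. The set holds 9 of the 54532 genes in the deposited count table, namely Pmp22, Prx, Pmp2, Ncmap, Egr2, Drp2, Cdh19, Gldn and Mal2, taken by gene symbol. They were grouped as Schwann cell and peripheral myelin genes, although Mal2 is best known from epithelial cells. They were chosen with read counts of these libraries known: Ncmap had already been seen lower in every CKO library. For that reason the difference between the genotypes is described for the 9 genes and not tested. The cords were collected 7 days after spinal cord injury. Tissue came from Tia1Nestin-CKO mice, called CKO here (4 libraries), and from Tia1f/f mice (4 libraries), whose name is that of the floxed Tia1 allele before recombination. The name of the CKO mice stands for loss of Tia1 through a Nestin-driven recombinase. TIA1 binds RNA and takes part in stress granules, and the study asked what its loss changes in the injured cord. Nestin marks neural stem and progenitor cells, and Schwann cells of peripheral nerves descend from the neural crest. Whether the recombinase acted in the Schwann cells of these cords was not tested. The Cre construct, the deleted exons, and the age and sex of the mice are not given in the labels, and no uninjured cord was analysed here. The labels also do not say that each library came from a separate mouse, so the errors below measure the spread between libraries. All 8 libraries were made from bulk RNA of the injured cord, in which fewer Schwann cells and less RNA per Schwann cell cannot be told apart.

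Schwann cells wrap the axons of peripheral nerves, including the spinal roots, while oligodendrocytes make the myelin of the cord itself. PMP22 and the fatty acid binding protein PMP2 are proteins of compact peripheral myelin. Periaxin (Prx) and DRP2 form a complex that ties the Schwann cell membrane to the basal lamina through dystroglycan, and the transcription factor EGR2 drives the myelin genes together with SOX10. After injury to the cord, Schwann cells are known to enter from the roots and, in mice, to arise in part from oligodendrocyte progenitors, and they can myelinate central axons.

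Counts summed to 14752733 reads in library Tia1f/f 1 and to 16189372 to 17802884 reads in the other libraries. Library Tia1f/f 1 stood apart. It held counts for 18884 genes, against 22434 to 23414 in the other libraries, and lay at -94.97 on a first principal component (41.6% of the variance) on which the others lay between 5.73 and 21.5. Log2 fold changes and list medians are therefore also given without it where that moved them by over 1.5 times or changed their sign. Tia1 itself averaged 26.9 ± 4.01 CPM in CKO and 32.9 ± 7.21 CPM in Tia1f/f (SD, n = 4 each), a log2 fold change of -0.29 (SE 0.19, and -0.16 without Tia1f/f 1), and the groups overlapped. With the deleted exons not known, this level does not check the labels. Of the labelled tissue, the oligodendrocyte gene Mbp averaged 2452 FPKM and the astrocyte gene Gfap 2430.3 FPKM. Of the Schwann cell markers, Prx was present in every library at 3.70 to 11.6 FPKM and Cldn19 at 0.546 to 1.62 FPKM. Over all 16537 genes tested, edgeR's quasi-likelihood test with Benjamini-Hochberg adjustment called 0 genes between the genotypes at 0.05. Unadjusted p-values under 0.05 were found for 234 genes (1.42%), and DESeq2 called 1 gene (Saa3), which is none of the 9.

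Levels of the 9 genes were compared per unit of gene length, as FPKM. Pmp22 was far above the rest at 103 FPKM (86.2 to 116 over the 8 libraries), which put it above 97.1% of the genes tested. Drp2 (8.30 FPKM), Prx (7.99), Cdh19 (4.87), Ncmap (4.52) and Mal2 (3.81) followed, each with a range that overlapped that of its neighbour in the order. Egr2 averaged 1.84 FPKM, below every library's Mal2 value and above every library's Gldn value. Gldn (0.666 FPKM) and Pmp2 (0.452 FPKM) were lowest, and their ranges overlapped.

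**Figure D1:**
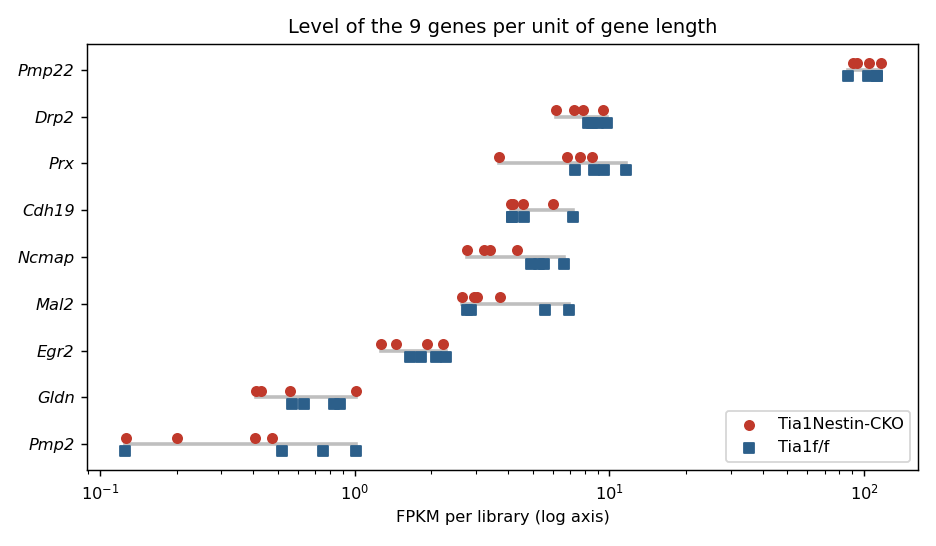
FPKM of each of the 9 genes in each library on a log axis, with CKO libraries as circles above Tia1f/f libraries as squares and a grey line for the range over all 8. Pmp22 stands apart at 86.2 to 116 FPKM, Drp2, Prx, Cdh19, Ncmap and Mal2 overlap one another in turn, and Gldn and Pmp2 are lowest.

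Promoter sequences of Prx and Ncmap are shown because both genes were lowest in library CKO 3 and had r = 0.65 over the 8 libraries on log2 CPM. EGR2, itself in the set, is also known to act on peripheral myelin genes. These traits do not single out Prx and Ncmap. Egr2 and Gldn were lowest in CKO 3 too, and Ncmap had r = 0.67 with Gldn. The r of Prx with Ncmap was 0.16 without CKO 3 and Tia1f/f 2. The windows are RefSeq's on GRCm38.p6, from 250 bases before to 50 bases after an annotated start, 5′ to 3′ on the gene's strand, and capitals mark the short EGR core GCGTGGG or its reverse complement CCCACGC. The Prx window lies at chr7:27499074-27499373 on the plus strand. RefSeq gives Ncmap a first start at the gene's 5′ end, with a window at chr4:135398178-135398477 on the minus strand, and a second start 12555 bases downstream, with a window at chr4:135385623-135385922 on the minus strand.
Prx promoter: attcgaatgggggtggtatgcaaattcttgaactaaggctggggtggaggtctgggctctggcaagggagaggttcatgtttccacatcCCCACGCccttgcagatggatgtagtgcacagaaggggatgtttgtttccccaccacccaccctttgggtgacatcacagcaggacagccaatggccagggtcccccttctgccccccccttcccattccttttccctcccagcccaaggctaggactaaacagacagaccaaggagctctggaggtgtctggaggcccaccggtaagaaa
Ncmap promoter, first start: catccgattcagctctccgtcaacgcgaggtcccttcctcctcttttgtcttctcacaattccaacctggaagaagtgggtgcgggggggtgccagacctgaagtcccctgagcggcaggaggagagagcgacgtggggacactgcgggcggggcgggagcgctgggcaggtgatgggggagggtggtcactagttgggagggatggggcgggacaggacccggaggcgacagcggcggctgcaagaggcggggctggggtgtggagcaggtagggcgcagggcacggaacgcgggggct
Ncmap promoter, second start: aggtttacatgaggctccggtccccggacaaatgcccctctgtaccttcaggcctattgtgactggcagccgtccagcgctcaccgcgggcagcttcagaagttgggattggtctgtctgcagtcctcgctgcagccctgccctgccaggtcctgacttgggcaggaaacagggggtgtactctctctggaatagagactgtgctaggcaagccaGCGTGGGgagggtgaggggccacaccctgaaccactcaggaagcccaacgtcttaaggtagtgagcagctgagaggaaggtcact

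The short core occurred once in the Prx window, read on the strand opposite to the gene, with its leftmost base 161 bases before the start. It occurred once in the Ncmap window of the second start, 35 bases before it, and not in that of the first. Of 32851 RefSeq mouse promoter windows of the same length, 5.04% hold the core on either strand, and 0.612% hold the longer motif GCGTGGGCG, which contains the core and was in none of the windows of the set. The SOX motifs ACAAAG and ACAATG, held by 18.7% and 12.6% of all windows on either strand, were not in these 3 windows. RefSeq windows were matched for 5 of the 9 genes (Pmp22, Prx, Ncmap, Egr2 and Gldn), and those of Pmp22, Egr2 and Gldn held no short core. A match describes letters in a window, not binding by a factor.

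Ncmap (chr4:135369576-135398227, minus strand, GRCm38) encodes a small membrane protein of noncompact peripheral myelin, and it was the gene whose pattern the choice of the set rested on. Its normalized level was 7.25, 7.63, 6.21 and 9.70 CPM in CKO libraries 1 to 4, against 15.1, 12.5, 11.8 and 11.1 CPM in Tia1f/f libraries 1 to 4. The groups did not overlap, and the highest CKO library, CKO 4, lay below the lowest Tia1f/f library, Tia1f/f 4. Ncmap averaged 7.70 ± 1.46 CPM in CKO and 12.6 ± 1.74 CPM in Tia1f/f (SD, n = 4 each), a log2 fold change of -0.71 (SE 0.20, 95% interval -1.15 to -0.28). Without Tia1f/f 1 the log2 fold change was -0.61. Ncmap was the 1 gene of the 9 whose groups did not overlap. Over all genes tested, 1.19% had groups that did not overlap, and 0.49% were lower in every CKO library. Since this pattern chose the gene, nothing is read from the comparison of those shares.

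**Figure D2:**
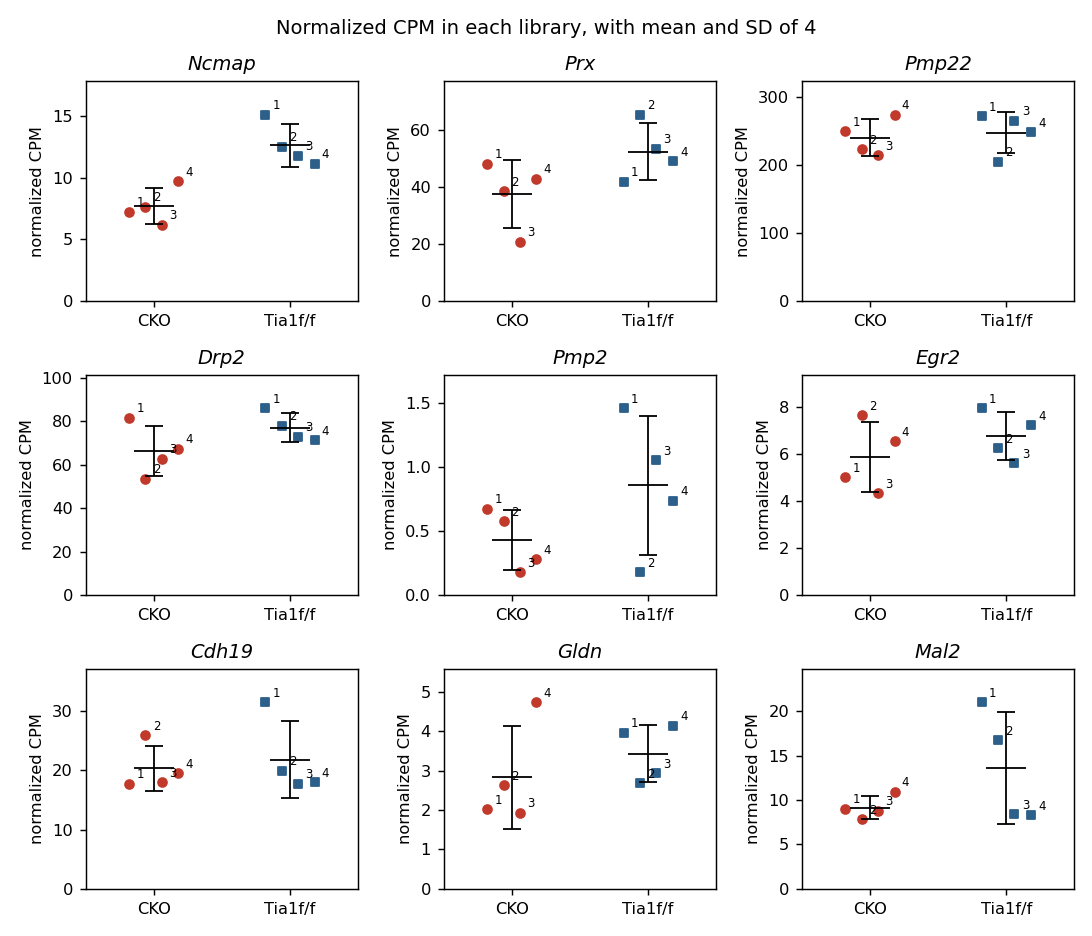
Normalized CPM of each of the 9 genes by library (numbered), CKO left and Tia1f/f right, with bars for the mean and SD of 4. Ncmap is separated between the groups (at most 9.70 CPM in CKO, at least 11.1 CPM in Tia1f/f), and the other 8 genes overlap.

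Periaxin (Prx, chr7:27499324-27520214, plus strand) is the scaffold protein of the Schwann cell's outer membrane. It had 48.1, 38.6, 20.8 and 42.8 CPM in CKO libraries 1 to 4, against 41.7, 65.2, 53.3 and 48.97 CPM in Tia1f/f libraries 1 to 4. The lowest library by far was CKO 3, and the 3 highest were Tia1f/f libraries, although CKO 1 and CKO 4 lay above Tia1f/f 1. Prx averaged 37.6 ± 11.8 CPM in CKO and 52.3 ± 9.84 CPM in Tia1f/f (SD, n = 4 each), a log2 fold change of -0.48 (SE 0.24, 95% interval -1.01 to 0.06). Without Tia1f/f 1, every CKO library was below every Tia1f/f library and the log2 fold change was -0.57, in a setting in which 3.15% of all genes tested did not overlap.

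Cldn19, a claudin of the noncompact membranes of Schwann cells that is no member of the set, had 2.92, 4.23, 2.35 and 4.79 CPM in CKO libraries 1 to 4, against 3.20, 5.59, 5.44 and 6.98 CPM in Tia1f/f libraries 1 to 4. As with Prx, CKO 3 was lowest and the groups overlapped, with a log2 fold change of -0.57 (SE 0.31). Its r with Prx on log2 CPM was 0.72 (rho 0.76), which was 0.74 without Tia1f/f 1. It was 0.38 without the libraries farthest from the median of Prx, CKO 3 and Tia1f/f 2. Leaving those out narrows the range of Prx, which can itself lower r. Cldn19 is 1 of 14 other genes of myelinating Schwann cells that were listed. Over all 14 the median r with Prx was 0.07, and 0.10 without Tia1f/f 1, so the list as a whole did not follow Prx. The FPKM ratio of Ncmap to Prx was 0.378 to 0.746 in CKO libraries and 0.480 to 0.906 in Tia1f/f libraries, and these overlapped. All such correlations are descriptions over 8 libraries that share their tissue, protocol and 2 genotypes, and Tia1f/f 1 enters each of them unless it is left out.

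**Figure D3:**
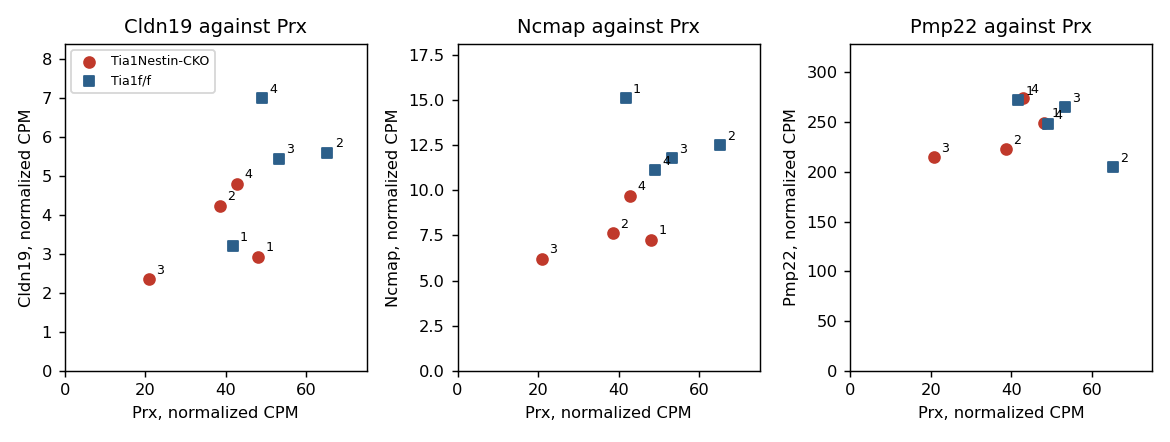
Normalized CPM of Cldn19, Ncmap and Pmp22 against that of Prx, 1 point per library (numbered), with CKO as circles and Tia1f/f as squares. CKO 3 is lowest for Prx, Cldn19 and Ncmap, with r = 0.72 between Prx and Cldn19 on log2 CPM, 0.65 between Prx and Ncmap and 0.18 between Prx and Pmp22.

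Genes most like Prx across the 8 libraries, among 12409 tested genes averaging at least 5 CPM, included Gm6565, Ydjc, Sms-ps, Grin2a, Sf3a3, Gm13736, Ormdl2, Rwdd1 and Mthfs, with r from 0.90 to 0.84. The 10 most like Ncmap were Polr3e, Rsph9, Dync2h1, Spata5, Ints10, Nbea, Lemd3, H2-T24, Trpc1 and Per3, with r from 0.96 to 0.90. No gene of the Schwann cell lists was among these 10. Prx and Ncmap had r = 0.65 (rho 0.55) with each other, which was 0.82 without Tia1f/f 1. It was 0.16 without CKO 3 and Tia1f/f 2, the libraries farthest from the median of Prx. Leaving out the extremes of Prx narrows its range and can itself lower r, so what the relation rested on cannot be told.

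Drp2 (chrX:134404551-134456573, plus strand) encodes dystrophin-related protein 2, the partner of periaxin in Schwann cells. It had 81.6, 53.5, 62.8 and 67.3 CPM in CKO libraries 1 to 4, against 85.9, 77.98, 72.9 and 71.3 CPM in Tia1f/f libraries 1 to 4. CKO 1 lay among the Tia1f/f libraries, and CKO 2, 3 and 4 were below all of them. Drp2 averaged 66.3 ± 11.7 CPM in CKO and 76.99 ± 6.57 CPM in Tia1f/f (SD, n = 4 each), a log2 fold change of -0.22 (SE 0.15, 95% interval -0.55 to 0.12), and -0.16 without Tia1f/f 1. Its r with Prx was 0.49 (rho 0.48). Of 11 other genes of the dystroglycan complex, 7 had log2 fold changes below 0 and 4 above, with a median of -0.04 (0.02 without Tia1f/f 1, with 4 of 11 below 0), and 0 passed edgeR's test. Dystroglycan itself, Dag1, averaged 16.1 FPKM and had a log2 fold change of 0.06 (SE 0.21), and the dystrophin homologue utrophin, Utrn, had -0.04 (SE 0.21, and -0.02 without Tia1f/f 1). Across libraries Drp2 and Dag1 had r = -0.16 (rho -0.10).

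Pmp22 (chr11:63128982-63159547, plus strand) encodes a compact myelin protein whose gene dosage is altered in human Charcot-Marie-Tooth neuropathy, and it is also known in fibroblasts and other cells outside nerve. It had 249, 223, 214 and 274 CPM in CKO libraries 1 to 4, against 272, 205, 265 and 248 CPM in Tia1f/f libraries 1 to 4. The lowest library was Tia1f/f 2 and the highest CKO 4, so the groups were interleaved. Pmp22 averaged 240.1 ± 26.9 CPM in CKO and 247 ± 30.1 CPM in Tia1f/f (SD, n = 4 each), with a log2 fold change of -0.04 (SE 0.15, 95% interval -0.37 to 0.28) and one of 0.01 without Tia1f/f 1. It varied least of the 9 genes, by 1.34 times between its lowest and highest library, against 3.13 times for Prx. Its r with Prx was 0.18 (rho -0.05).

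The 151 other genes in the lists were ranked by their r with Pmp22 across libraries, so the names that follow were picked by value. The highest were Myadm, a relative of MAL, with r = 0.80 (rho 0.90), Lum, a fibroblast proteoglycan, with 0.79 (rho 0.74), and Dag1 with 0.79 (rho 0.81). Dhh, a signal made by Schwann cells, followed with 0.77 (rho 0.83), and Dcn, another fibroblast proteoglycan, with 0.72 (rho 0.62). Without the libraries farthest from the median of Pmp22, Tia1f/f 2 and CKO 3, the r of these genes was between 0.64 and 0.78. Over all 10 fibroblast genes the median r with Pmp22 was 0.41, and 0.46 without Tia1f/f 1. Over the 14 other myelinating Schwann cell genes it was 0.11, and 0.32 without Tia1f/f 1. The fibroblast list was not alone in this. The median r with Pmp22 was 0.52 over 11 dystroglycan complex genes (0.43 without Tia1f/f 1). It was 0.41 over 3 related epithelial membrane protein genes (0.62) and 0.28 over 9 microglia and macrophage genes (0.38). Over the 8 central neuron genes it was -0.55 (-0.73). The fibroblast list had log2 fold changes below 0 for 6 of 10 genes, with a median of -0.04 and 0 calls, and its level, as mean log2 CPM relative to each gene's own mean, was -0.59 to 0.80 in CKO libraries and -0.49 to 0.67 in Tia1f/f libraries. Of the related epithelial membrane proteins, Emp3 had a log2 fold change of 0.23 (SE 0.24, and 0.07 without Tia1f/f 1), Emp1 0.07 (SE 0.30, and -0.03 without Tia1f/f 1) and Emp2 -0.03 (SE 0.14, and 0.04 without Tia1f/f 1), with a median of 0.07 (0.04 without Tia1f/f 1, with 1 of 3 below 0) and 0 calls, and Lim2 was listed at 0.

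Pmp2 (chr3:10179851-10183929, minus strand) encodes the fatty acid binding protein of peripheral myelin and was close to the limit of detection. It was counted 12, 9, 3 and 5 times in CKO libraries 1 to 4, against 21, 3, 19 and 13 times in Tia1f/f libraries 1 to 4. Both groups held a library with 3 reads. Pmp2 had a log2 fold change of -0.98 (SE 0.64, 95% interval -2.38 to 0.43), and -0.62 without Tia1f/f 1. A difference of either sign lay within that interval at this depth. The related genes were far more abundant, with 251 FPKM for Fabp7, which is known in astrocytes and progenitors, and 211 FPKM for Fabp5, and their log2 fold changes were -0.20 (SE 0.25) and 0.18 (SE 0.22, and 0.04 without Tia1f/f 1). Over all 4 related genes, 3 log2 fold changes were above 0 and 1 below, with a median of 0.12 and 0 calls. Without Tia1f/f 1 the median was -0.15, with 3 of 4 below 0.

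Egr2 (chr10:67535475-67542188, plus strand) encodes the zinc finger factor that Schwann cells need to start and maintain myelin, and it is also induced in immune cells. It had 5.005, 7.63, 4.34 and 6.54 CPM in CKO libraries 1 to 4, against 7.93, 6.24, 5.60 and 7.21 CPM in Tia1f/f libraries 1 to 4. The groups overlapped, with CKO 2 between the highest Tia1f/f libraries and CKO 3 lowest. Egr2 averaged 5.88 ± 1.49 CPM in CKO and 6.74 ± 1.03 CPM in Tia1f/f (SD, n = 4 each), a log2 fold change of -0.20 (SE 0.24, 95% interval -0.72 to 0.33), and -0.11 without Tia1f/f 1. Of 14 partners and regulators of EGR2, 8 had log2 fold changes below 0 and 6 above, with a median of -0.02 (0.09 without Tia1f/f 1, with 5 of 14 below 0), and 0 passed edgeR's test with adjustment. The log2 fold change was 0.24 (SE 0.23) for Sox10, which acts with EGR2 on myelin genes and is shared with oligodendrocytes, and 0.15 (SE 0.14) for Jun, which opposes EGR2 in injured Schwann cells. It was -0.08 (SE 0.18, and 0.09 without Tia1f/f 1) for Nab1 and 0.09 (SE 0.18, and -0.02 without Tia1f/f 1) for Nab2, corepressors that bind EGR2. Pou3f1 (OCT6), a factor upstream of Egr2 in Schwann cell development, averaged 8.32 ± 1.43 CPM in CKO and 5.79 ± 0.662 CPM in Tia1f/f (SD, n = 4 each). It was higher in every CKO library, as were 0.701% of all genes tested, with a log2 fold change of 0.52 (SE 0.20), and did not pass (edgeR quasi-likelihood adjusted p = 1.00). Of the same 151 genes, P2ry12, a microglial gene, had the highest r with Egr2 (0.88, rho 0.90), while the median over 9 microglia and macrophage genes was 0.23. The 8 skeletal muscle genes had r from -0.89 to -0.67 with Egr2. Egr2 had r = 0.41 (rho -0.10) with Prx, which was -0.68 without CKO 3 and Tia1f/f 2.

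Cdh19 (chr1:110888326-110977584, minus strand) encodes a cadherin of the Schwann cell lineage from its precursors on. It had 17.8, 25.9, 18.02 and 19.6 CPM in CKO libraries 1 to 4, against 31.5, 19.9, 17.8 and 18.04 CPM in Tia1f/f libraries 1 to 4. Tia1f/f 1 stood above the other 7 libraries, which lay between 17.8 and 25.9 CPM. Cdh19 averaged 20.3 ± 3.82 CPM in CKO and 21.8 ± 6.53 CPM in Tia1f/f (SD, n = 4 each), a log2 fold change of -0.10 (SE 0.22, 95% interval -0.58 to 0.38), which was 0.13 without Tia1f/f 1. Its direction thus rested on that library. Of 13 tested genes of the Schwann lineage and of non-myelinating Schwann cells, 7 had log2 fold changes below 0 and 6 above, with a median of -0.08 and 0 calls. Without Tia1f/f 1 that median was 0.10, with 4 of 13 below 0. Cdh19 went with Egr2 (r = 0.71, rho 0.81, and 0.45 without Tia1f/f 1 and CKO 2). Of the 151 genes of the lists its highest r was with Id2, an inhibitor of transcription factors (r = 0.94, rho 0.74, and 0.82 without Tia1f/f 1), and then with Ugt8a, a myelin lipid enzyme that oligodendrocytes also make (r = 0.90, rho 0.95, and 0.67 without Tia1f/f 1). The median r with Cdh19 was 0.57 over 14 central myelin genes (0.23 without Tia1f/f 1) and 0.53 over 6 astrocyte genes (-0.18). It was -0.06 over the 14 other myelinating Schwann cell genes (-0.04) and -0.33 over 13 Schwann lineage and non-myelinating genes (-0.02). Which cells set the Cdh19 level was not tested.

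Gldn (chr9:54286486-54341786, plus strand) encodes gliomedin, which Schwann cells deposit at the node of Ranvier to cluster sodium channels. It had 2.02, 2.63, 1.93 and 4.74 CPM in CKO libraries 1 to 4, against 3.96, 2.67, 2.94 and 4.14 CPM in Tia1f/f libraries 1 to 4. CKO 4 was the highest of all 8 libraries and the other CKO libraries were the 3 lowest. Gldn averaged 2.83 ± 1.31 CPM in CKO and 3.43 ± 0.730 CPM in Tia1f/f (SD, n = 4 each), a log2 fold change of -0.27 (SE 0.34, 95% interval -1.03 to 0.48), which was -0.64 without CKO 4. With its neuronal receptors Gldn had r = -0.11 for Nrcam (rho -0.14) and -0.08 for Nfasc (rho -0.17). With Lum, the highest of the 151 genes of the lists, it had r = 0.79 (rho 0.79), and 0.71 without CKO 4 and Tia1f/f 4. Of 12 node and paranode genes, 11 had log2 fold changes below 0, with a median of -0.26, and 0 passed edgeR's test with adjustment. Among them the log2 fold change was -0.49 (SE 0.29, and -0.16 without Tia1f/f 1) for Cntn1, an axonal adhesion molecule of the paranode, and 0.04 (SE 0.22, and 0.08 without Tia1f/f 1) for Nrcam. The level of that list overlapped between the groups, at -0.29 to 0.10 in CKO libraries and -0.34 to 0.48 in Tia1f/f libraries. The 8 central neuron genes had 8 log2 fold changes below 0, a median of -0.31 and 0 calls, with -0.49 for the axonal filament gene Nefl and -0.49 for the synaptic gene Snap25. Of all genes tested, 51.9% were below 0. The level of the neuron list was -0.29 to 0.05 in CKO libraries. It was 0.12, 0.75, -0.37 and -0.04 in Tia1f/f libraries 1 to 4, so the groups overlapped and Tia1f/f 2 was far the highest. The part of neurons in the node values was not tested.

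Mal2 (chr15:54571192-54602847, plus strand) encodes a raft protein of membrane traffic that is best known from epithelial cells and is also present in neurons. It had 8.997, 7.83, 8.80 and 10.9 CPM in CKO libraries 1 to 4, against 20.99, 16.7, 8.43 and 8.28 CPM in Tia1f/f libraries 1 to 4. Tia1f/f 1 and Tia1f/f 2 were high and Tia1f/f 3 and Tia1f/f 4 lay within the range of the CKO libraries. Mal2 averaged 9.14 ± 1.30 CPM in CKO and 13.6 ± 6.30 CPM in Tia1f/f (SD, n = 4 each), a log2 fold change of -0.57 (SE 0.30, 95% interval -1.24 to 0.10), which was -0.28 without Tia1f/f 1. Its r with Snap25 was 0.82 (rho 0.60), and 0.84 without Tia1f/f 1 but -0.04 without both Tia1f/f 1 and Tia1f/f 2. The relation was thus not seen in the other libraries, over which Mal2 had a narrower range, and that can itself lower r. Over the 8 central neuron genes the median r with Mal2 was 0.62 (0.78 without Tia1f/f 1), against 0.18 with Prx. Over the 14 other myelinating Schwann cell genes the median r with Mal2 was 0.04. Other lists lay near the neuron value. The median r with Mal2 was 0.56 over 6 astrocyte genes (0.25 without Tia1f/f 1) and 0.54 over 12 node and paranode genes (0.67). It was 0.41 over 14 central myelin genes (0.21). These medians were not taken without both Tia1f/f 1 and Tia1f/f 2. Its relative Mal, a gene of central and peripheral myelin, averaged 131 FPKM and had a log2 fold change of -0.05 (SE 0.25, and 0.22 without Tia1f/f 1). Of 5 genes of the MAL family, 3 had log2 fold changes below 0 and 2 above, with a median of -0.05 (0.18 without Tia1f/f 1, with 1 of 5 below 0) and 0 calls.

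As a set, all 9 genes had log2 fold changes below 0 with all libraries, as had 51.9% of the 16537 genes tested. Their median was -0.27, against -0.01 for all genes. Leaving out Ncmap, whose pattern chose the set, 8 of 8 were below 0 with a median of -0.25. Leaving out Tia1f/f 1 as well, 6 of these 8 were below 0 with a median of -0.18. Called genes were 0 of 9, where 0% of all genes were called. Without Tia1f/f 1, 7 of 9 were below 0 with a median of -0.20, and Pmp22 and Cdh19 were above 0. Tia1f/f 1 was the highest library for 6 of the 9 genes, as it was for 27.5% of all genes tested, and CKO 3 was the lowest for 4 of the 9, as it was for 9.58% of all genes. These counts describe genes chosen with the contrast known, and nothing is read from them against the background.

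**Figure D4:**
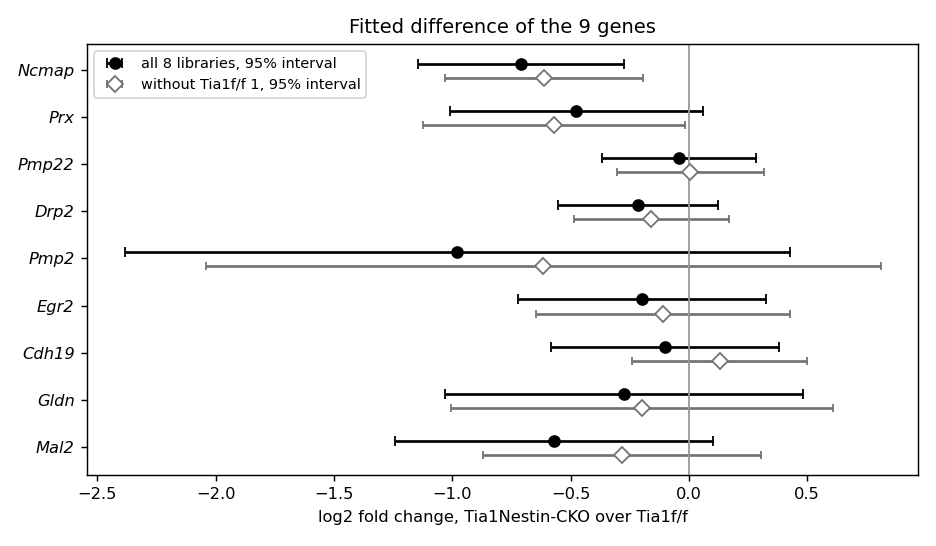
Log2 fold change (CKO over Tia1f/f) of each of the 9 genes from edgeR's fit, with 95% intervals, for all 8 libraries (filled circles) and without Tia1f/f 1 (open diamonds). All 9 circles lie left of 0, from -0.98 for Pmp2 to -0.04 for Pmp22, and the diamonds of Pmp22 and Cdh19 lie right of it.

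The r between the 9 genes is given with no r of other gene sets beside it, and Tia1f/f 1 was the highest library for 6 of them. The median r over their 36 pairs was 0.38 on log2 CPM, with 34 pairs above 0. It was 0.25 over deviations from the group means and 0.21 without Tia1f/f 1, with 26 pairs above 0. Pairs with r over 0.5 in all of these were Egr2 with Gldn (r = 0.72, and 0.68 without Tia1f/f 1), Egr2 with Cdh19 (0.71 and 0.64), Ncmap with Gldn (0.67 and 0.61), Pmp22 with Gldn (0.64 and 0.58) and Pmp22 with Pmp2 (0.67 and 0.59). Cdh19 and Prx, both known from Schwann cells, had r = -0.04. Drp2 and Cdh19 had 0.03, and -0.74 without Tia1f/f 1.

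**Figure D5:**
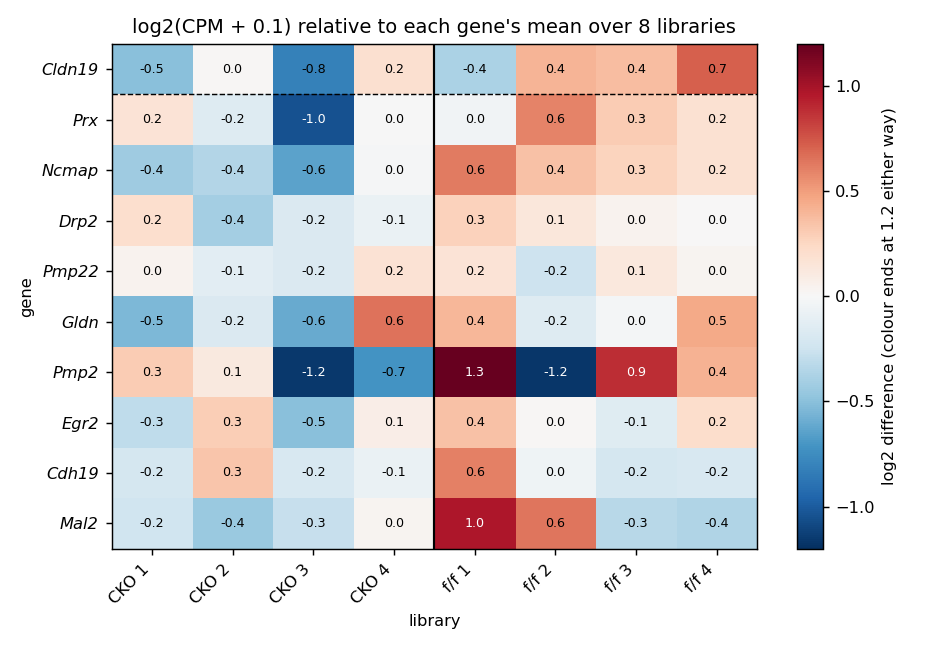
Log2(CPM + 0.1) of the 9 genes, and of Cldn19 above the dashed line, relative to each gene's mean over the 8 libraries, with CKO libraries left of the vertical line and Tia1f/f libraries right of it. CKO 3 is lowest for Cldn19, Prx, Ncmap, Egr2 and Gldn. Tia1f/f 1 is highest for Drp2, Cdh19, Ncmap, Mal2, Egr2 and Pmp2 but not for Prx, Pmp22, Gldn or Cldn19.

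Further Schwann cell genes lay on both sides of 0. Of 14 other genes of myelinating Schwann cells, 7 had log2 fold changes below 0 and 7 above, with a median of -0.03, 0 calls after adjustment, and 1 unadjusted p under 0.05 (Pou3f1). Cldn19 had the lowest log2 fold change of them, -0.57 (SE 0.31), followed by Adam22 with -0.38 (SE 0.22, and -0.22 without Tia1f/f 1), an order named from the values. Gjb1, a connexin shared with oligodendrocytes, had a log2 fold change of 0.14 (SE 0.16). Of 13 repair Schwann cell genes, 11 had log2 fold changes above 0 and 2 below, where 7953 of all 16537 genes tested were above 0. The repair genes had a median of 0.22 and 0 calls. Among these the log2 fold change was 0.22 (SE 0.20) for Gap43, which neurons and glia of the injured cord also make, and 0.13 (SE 0.24, and 0.22 without Tia1f/f 1) for Olig1, which oligodendrocytes make. The level of the repair list was -0.02 to 0.29 in CKO libraries and -0.38 to 0.002 in Tia1f/f libraries, lowest in Tia1f/f 1, and the groups overlapped. The 14 central myelin genes had 9 log2 fold changes below 0 and 5 above, with 0 calls. Their median was -0.07, with 0.20 (SE 0.16) for Mbp. Without Tia1f/f 1 the median was 0.18, and 2 of 14 were below 0.

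Markers of tissue that could be taken along with roots or around the cord were read beside these values. Of 12 sensory neuron genes, 6 passed the filter on low counts, and the dorsal root ganglion channel Scn10a, picked after its value was seen, averaged 0.0680 FPKM. The level of the 6 was -0.47 to 0.77 in CKO libraries and -0.42 to 0.41 in Tia1f/f libraries. These 6 had a median log2 fold change of -0.15, with 3 below 0 and 0 calls. The level of 8 skeletal muscle genes ran from -2.41 to 2.10 in CKO libraries and -1.71 to 2.31 in Tia1f/f libraries, and their median log2 fold change was 0.46 (0.19 without Tia1f/f 1, with 3 of 8 below 0), with 5 above 0 and 0 calls. The median r of the 8 muscle genes was -0.76 with Egr2, -0.54 with Gldn and -0.44 with Cdh19, so these were lower where muscle genes were higher. Without Tia1f/f 1 these were -0.86, -0.60 and -0.66. With Prx it was -0.24, with Ncmap -0.20, with Mal2 -0.13, with Pmp2 0.07, with Pmp22 0.15 and with Drp2 0.39. Median log2 fold changes were 0.14 (0.08 without Tia1f/f 1, with 3 of 9 below 0) for 9 microglia and macrophage genes (4 below 0), -0.18 (-0.04 without Tia1f/f 1, with 4 of 6 below 0) for 6 astrocyte genes (5 below 0), 0.06 (0.01 without Tia1f/f 1, with 2 of 5 below 0) for 5 oligodendrocyte progenitor genes (1 below 0) and -0.16 for 4 motor neuron genes (2 below 0), each with 0 calls. Without Tia1f/f 1 the motor neuron median was -0.24, with 4 of 4 below 0. The part of the cells of all these lists in the values of the 9 genes was not tested.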

How the data were processed

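Total RNA of mouse spinal cord was sequenced, from 4 Tia1Nestin-CKO and 4 Tia1f/f libraries grouped by the genotype in their titles. Per the labels' protocols, TRIzol was used for the RNA and a NEBNext Ultra kit for the libraries. The authors deposited raw read counts per gene, 1 column per library, and FPKM values for the same genes. HISAT2 2.0.5, featureCounts 1.5.0-p3, fastp, CASAVA 1.8 and DESeq2 1.20.0 are listed, with no roles, in the submitters' processing notes. They also name GRCh38, but the identifiers are mouse, and 98.3% of 54409 identifiers shared with GENCODE M21 (GRCm38) have the same coordinates, the 9 genes included. The use of strand and of reads with several matches is not given in the sources used here. Annotated genes that overlap the 9 held at most 11 reads.

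Counts were tested on the whole table with edgeR 4.0.16 in R 4.3.3, with TMM scaling (factors 0.964 to 1.03), filterByExpr (minimum count 10, minimum total 15, leaving 16537 genes, all 9 included), genotype as the only term and Benjamini-Hochberg adjustment at 0.05. The biological coefficient of variation was 0.27. Levels between genes use the deposited FPKM, and levels of 1 gene use CPM, counts scaled to the library total after TMM normalization. Standard errors were derived from the log2 fold change and its F statistic, and intervals cover 95%. Correlations use log2 CPM with a prior count of 2. The code was tested on simulated data.

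The 9 genes and the 18 lists of related genes and cell type markers (161 symbols, all found) were chosen with earlier results of these data known. Genes named are the 9, Tia1, up to 3 abundant genes or relatives, partners and regulators per list, and the 10 genes most like Prx and Ncmap. Some that these rules name are not reported here. Others are said to be picked after their values were seen. Alternatives were RLE size factors, no filter or a stricter one (1 CPM in 4 libraries), each library left out, replicate number as a block, DESeq2 1.42.0, limma-voom and limma-trend (limma 3.58.1) on log2(FPKM + 1) and log2(FPKM + 0.1). Added after seeing the data were a fit without Tia1f/f 2 and CKO 4 and the alternatives for correlations.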

Additional observations from a re-analysis of the deposited data

Results flagged for a closer look

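Cdh19, the cadherin of the Schwann cell lineage, was 31.5 CPM in Tia1f/f 1, while the other Tia1f/f libraries lay between 17.8 and 19.9 CPM. The gap to the nearest of them exceeded the 95% limit of Dixon's test for 4 samples. Of 18 combinations of gene and group checked this was the 1 past the limit, and chance alone gives about 1 in 20. Tia1f/f 1 is the library that stands apart over all genes, and what sets its Cdh19 value was not tested.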

How the results depend on the processing

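The count of genes called was 0 under every alternative except DESeq2, which called 1 of 28868 (Saa3). None of the 9 was called under any. Ncmap was lower in every CKO library used under each alternative, with log2 fold changes from -0.85 to -0.58. This pattern chose the gene, and leaving libraries out of groups that do not overlap cannot make them overlap at the same scaling. Neither limma-voom nor the replicate block changed the CPM, so the pattern was not put to a test here. The number of the 9 whose groups did not overlap was 1 to 2 when each library was left out. The second was Drp2 without CKO 1 (background 2.44%), Gldn without CKO 4 (3.15%), Prx without Tia1f/f 1 (3.15%) and Pmp2 without Tia1f/f 2 (2.99%). Without both Tia1f/f 2 and CKO 4, whose Tia1 level lay nearer the other group, it was 3, where 7.21% of all genes did not overlap, and Gldn was then -0.74. The median log2 fold change of the 9 ranged from -0.54 (without CKO 4) to -0.19 when each library was left out. Pmp22 was above 0 without CKO 3 and without Tia1f/f 1, and Cdh19 without Tia1f/f 1. The cause of these shifts was not tested. The median r over pairs was 0.25 for deviations from group means and 0.21 (without Tia1f/f 1) to 0.53 (without Tia1f/f 2) with each library left out, and 0.24 without CKO 3. Same-numbered libraries did not pair (r of their deviations -0.33 to 0.05). With the replicate block 0 genes were called, and the median of the 9 was -0.34.

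Depth limits Pmp2 most, with 85 reads in all 8 libraries, and then Gldn with 421.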
